A study of Mus musculus with 51 samples.

Results

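The genes described here are the 9 autosomal genes for the general writers and erasers of histone H3 lysine 4 (H3K4) methylation: the methyltransferases Setd1a, Setd1b, Kmt2a, Kmt2b, Kmt2c and Kmt2d, and the demethylases Kdm5a, Kdm5b and Kdm1a. They were chosen by name for their function, with earlier results of these data known, and are 9 of the 20722 protein-coding genes on chromosomes 1 to 19. The measurement was whether a ChIP-Seq peak was called within 500 bp of the 5′ end of a protein-coding transcript (the transcription start site, TSS) and how wide that peak was. GENCODE M21 gave the 9 genes 30 distinct TSSs, from 2 for Kmt2a, Kdm5a and Kdm5b to 5 for Kmt2c and Kdm1a.

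H3K4 methylation is placed by complexes of the COMPASS family, in which a catalytic subunit works with a shared core of WDR5, RBBP5, ASH2L and DPY30. SETD1A and SETD1B trimethylate H3K4 at active promoters, where CXXC1 binds unmethylated CpG, KMT2A and KMT2B act with menin at selected promoters, and KMT2C and KMT2D mostly monomethylate enhancers. KDM5A and KDM5B remove trimethylation and dimethylation, and KDM1A, which acts with CoREST proteins, removes dimethylation and monomethylation. In spermatocytes a further methyltransferase, PRDM9, marks the sites of meiotic recombination with H3K4me3.

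All nuclei came from whole testis of adult wild-type C57Bl/6J males, were fixed with formaldehyde and were sorted by flow cytometry for DNA content and intranuclear markers into 5 substages of meiotic prophase: leptonema and zygonema (together called early below), then early pachynema, late pachynema and, last, diplonema. The peak lists numbered 20: 10 for H3K4me3 with the EpiCypher antibody (experiments 1 and 2 at each stage), 5 with the Abcam antibody that recognizes H3K4me2 and H3K4me3 (H3K4me2/3, experiment 2) and 5 for H3K9ac (experiment 1). The titles of the H3K9ac libraries and the methods of the study name H3K9ac, whereas their antibody field names H3K4me3. The catalogue number in that field is the one the study gives for its H3K9ac antibody, and the libraries are called H3K9ac here. The labels do not say how many animals gave each sort, so the spread between experiments may be in part technical. A list gives the position of each peak with no height or read count, the depth behind a call is unknown, and a TSS without a peak can carry the mark below the threshold of the caller.

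List lengths ran from 4883 to 15699 peaks for H3K4me3, from 17561 to 30943 for H3K4me2/3 and from 516 to 16003 for H3K9ac. Of the 4 genes behind the sort, Sycp3 had an H3K4me3 peak in all 10 lists and Sycp1 in 8, Stra8 had one in the leptonema lists alone, and Hist1h1t, the gene of the histone variant H1t that marks later nuclei, had a peak in leptonema experiment 1 and zygonema experiment 2 and in none of the 6 later lists. The 5 spermatid genes (Prm1, Prm2, Tnp1, Tnp2, Acrv1) had no H3K4me3 peak in any list. Of 5 Sertoli cell genes, from 0 to 3 had an H3K4me3 peak in a list, with Sox9, Wt1 and Gata4 all called in leptonema experiment 2, Wt1 also in zygonema experiment 2 (245 bp), and Amh and Dhh in none. Of 5 Leydig cell genes, Insl3 alone had a peak, of 288 bp in diplonema experiment 2. Of 4 spermatogonial genes, from 0 to 2 had an H3K4me3 peak in a list, and these calls were all early. They were Dmrt1 in both leptonema lists and zygonema experiment 1, and Kit in leptonema experiment 2. The H3K4me2/3 lists called from 2 to 4 spermatogonial genes, with Kit at 1704 and 826 bp in late pachynema and diplonema. They also called from 1 to 3 Sertoli cell genes, Gata4 in all 5 lists, and 0 or 1 spermatid and Leydig cell gene. The H3K9ac lists called from 0 to 3 spermatogonial genes and none of the spermatid, Sertoli or Leydig cell genes. Whether other cells contributed to the calls below was not tested, and leaving out leptonema experiment 2 and diplonema experiment 2 moved the share of gene-list pairs with an H3K4me3 peak at the 9 genes from 82.2% (74 of 90) to 79.2% (57 of 72). Leaving out the 3 H3K4me3 lists with a spermatogonial call gave 74.6% (47 of 63). Zygonema experiment 2 had no such H3K4me3 call, but its H3K4me2/3 list called all 4 spermatogonial genes (1008 to 1881 bp). The shares of 79.2% and 74.6% follow from how many members the removed lists called, so they cannot show whether other cells contributed.

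The sequences just upstream of the TSS are shown for the 5 genes with enough bases in the RefSeq promoter table before the first annotated exon. Setd1a, called in every H3K4me3 list, was held there but had too few such bases. The sequences shown hold promoters whose calls came and went (Kmt2a, Kmt2c, Kmt2d) and promoters that were called in every H3K4me3 list (Kdm5b, Kdm1a). They are given with a stretch inside Kdm1a that had peaks in leptonema and zygonema only. The RefSeq table (GRCm38.p6, which has the coordinates of mm10) held 6 of the 9 genes, and none was held for Setd1b, Kmt2b and Kdm5a. The bases are written 5′ to 3′ on the strand of the gene, end before the first annotated exon, and have each CpG in capitals. They lie at chr9:44881297-44881539 (Kmt2a, minus strand), chr5:25498784-25499033 (Kmt2c, minus), chr15:98871206-98871455 (Kmt2d, minus), chr1:134559928-134560170 (Kdm5b, plus) and chr4:136602724-136602973 (Kdm1a, minus), and the inner stretch at chr4:136577613-136577866 (minus).
Kmt2a: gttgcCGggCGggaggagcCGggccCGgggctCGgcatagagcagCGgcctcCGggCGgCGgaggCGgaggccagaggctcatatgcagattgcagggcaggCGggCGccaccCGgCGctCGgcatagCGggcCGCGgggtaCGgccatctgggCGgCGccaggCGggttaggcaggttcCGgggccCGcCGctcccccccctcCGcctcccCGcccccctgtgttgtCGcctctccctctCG
Kmt2c: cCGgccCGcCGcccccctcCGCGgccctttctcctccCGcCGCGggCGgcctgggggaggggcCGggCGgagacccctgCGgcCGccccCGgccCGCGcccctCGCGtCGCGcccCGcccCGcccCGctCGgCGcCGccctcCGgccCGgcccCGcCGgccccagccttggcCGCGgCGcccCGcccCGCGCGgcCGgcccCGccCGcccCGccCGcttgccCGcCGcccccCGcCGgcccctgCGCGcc
Kmt2d: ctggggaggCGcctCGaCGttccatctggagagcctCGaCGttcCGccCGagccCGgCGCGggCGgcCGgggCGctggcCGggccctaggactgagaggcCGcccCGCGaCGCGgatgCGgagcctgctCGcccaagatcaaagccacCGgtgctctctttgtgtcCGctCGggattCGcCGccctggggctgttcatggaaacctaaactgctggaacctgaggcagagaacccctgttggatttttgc
Kdm5b: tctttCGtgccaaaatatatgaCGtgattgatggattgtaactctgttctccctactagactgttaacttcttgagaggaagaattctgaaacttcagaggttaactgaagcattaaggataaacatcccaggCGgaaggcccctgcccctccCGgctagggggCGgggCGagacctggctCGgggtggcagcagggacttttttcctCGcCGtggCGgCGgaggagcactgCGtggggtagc
Kdm1a: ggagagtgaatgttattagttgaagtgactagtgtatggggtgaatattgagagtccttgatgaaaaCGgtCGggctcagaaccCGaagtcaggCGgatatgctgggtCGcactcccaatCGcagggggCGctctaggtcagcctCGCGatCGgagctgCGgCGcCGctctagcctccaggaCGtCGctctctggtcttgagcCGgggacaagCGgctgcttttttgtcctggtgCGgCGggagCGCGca
Kdm1a inner site: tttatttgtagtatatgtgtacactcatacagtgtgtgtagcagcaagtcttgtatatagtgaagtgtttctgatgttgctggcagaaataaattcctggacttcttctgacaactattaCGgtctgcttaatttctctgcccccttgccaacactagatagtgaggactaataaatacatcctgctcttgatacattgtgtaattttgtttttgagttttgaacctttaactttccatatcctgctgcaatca

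The promoter stretches held many CpGs and the inner Kdm1a stretch hardly any. Kmt2c had 48 CpGs in 250 bases at 91.6% GC, Kmt2a 29 in 243 bases, Kmt2d 26 in 250, Kdm1a 21 in 250 and Kdm5b 12 in 243. The inner site had 1 CpG in 254 bases at 36.6% GC. Over the whole window of 500 bp on either side of the first TSS, the CpG count was 139 for Kmt2c, 120 for Kmt2a, 106 for Kmt2b, 103 for Kdm1a, 102 for Setd1b, 86 for Kmt2d, 78 for Kdm5a, 74 for Kdm5b and 62 for Setd1a, against a median of 44 over all 20722 genes. Genes with an H3K4me3 peak in all 10 lists had a median of 75 and genes with none a median of 12, so that Kmt2a, at the 97.5th percentile of all genes, was CpG-rich although its H3K4me3 calls were confined to leptonema and zygonema.

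Short motifs were counted on both strands in the 300-base RefSeq promoters, which include 50 bases after the start. GGGCGG, the core of the GC box that SP factors bind, occurred in 4 of the 6 promoters (12 times in Kmt2c, 5 in Kmt2a, 4 in Kmt2d and once in Kdm5b) and in 35.98% of 31396 promoters. CCAAT was found in Kdm1a only (37.3% of promoters), and CCGGAAG (9.004%) and CACGTG (7.14%) in none of the 6. Occurrences may overlap, and CACGTG reads the same on both strands and was counted once. These are matches of letters and say nothing of binding.

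All 9 genes had an H3K4me3 peak in each of the 4 leptonema and zygonema lists, and in the later lists between 4 and 8 of them did. At leptonema the 9 of 9 compared with 38.7% of all genes in experiment 1 and 46.3% in experiment 2. The 9 of 9 at zygonema compared with 36.2% and 35.3%. Early pachynema gave 8 of 9 in experiment 1 (33.6% of all genes) and 4 of 9 in experiment 2 (25.2%). Late pachynema gave 4 of 9 (26.4%) and 8 of 9 (39.7%), and diplonema 6 of 9 (28.7%) and 8 of 9 (46%). The members called were always a larger share than that of all genes.

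The 2 lists with 4 members, early pachynema experiment 2 and late pachynema experiment 1, held the same ones: Setd1a, Kdm5a, Kdm5b and Kdm1a. These were also the shortest H3K4me3 lists, with 4883 and 5189 peaks. In diplonema the list of 6645 peaks called 6 members and that of 12071 peaks called 8. In the 3 later stages the longer list thus held more members, whereas both lists of leptonema and of zygonema held all 9 at different lengths. At each of these 3 later stages the study lists a lower purity for the nuclei behind the longer list. The part of depth or purity in this was not tested. With every H3K4me3 list reduced to its widest peaks, as many as in the shortest list, the members were called in 16 of 18 gene-list pairs at leptonema, 16 of 18 at zygonema, 11 of 18 at early pachynema, 11 of 18 at late pachynema and 13 of 18 at diplonema. The share of all genes at this setting was 22.1%, 13.8%, 25.6%, 24.6% and 22.7% in the same order. In bulk nuclei, fewer nuclei with the mark and less of the mark per nucleus cannot be told apart.

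With the Abcam antibody nearly every member was called throughout. All 9 had an H3K4me2/3 peak in leptonema (64.7% of all genes), zygonema (59.4%), early pachynema (53.7%) and late pachynema (55.4%), and 8 of 9 in diplonema (53.3%), where Kmt2a had none. H3K9ac was present at 6 of 9 members in leptonema (14.8%), 8 in zygonema (41.1%) and 9 in early pachynema (35.3%), but at 1 in late pachynema (8.27%) and 1 in diplonema (1.99%). The H3K9ac lists of the last stages held 1727 and 516 peaks, against 16003 in zygonema, and with equal list sizes the members called were 3, 2, 2, 1 and 1 from leptonema to diplonema, against 2.91%, 2.37%, 2.66%, 2.62% and 1.99% of all genes. At 516 peaks per list few genes of any kind could be called at any stage, so this setting cannot compare the stages.

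**Figure D1:**
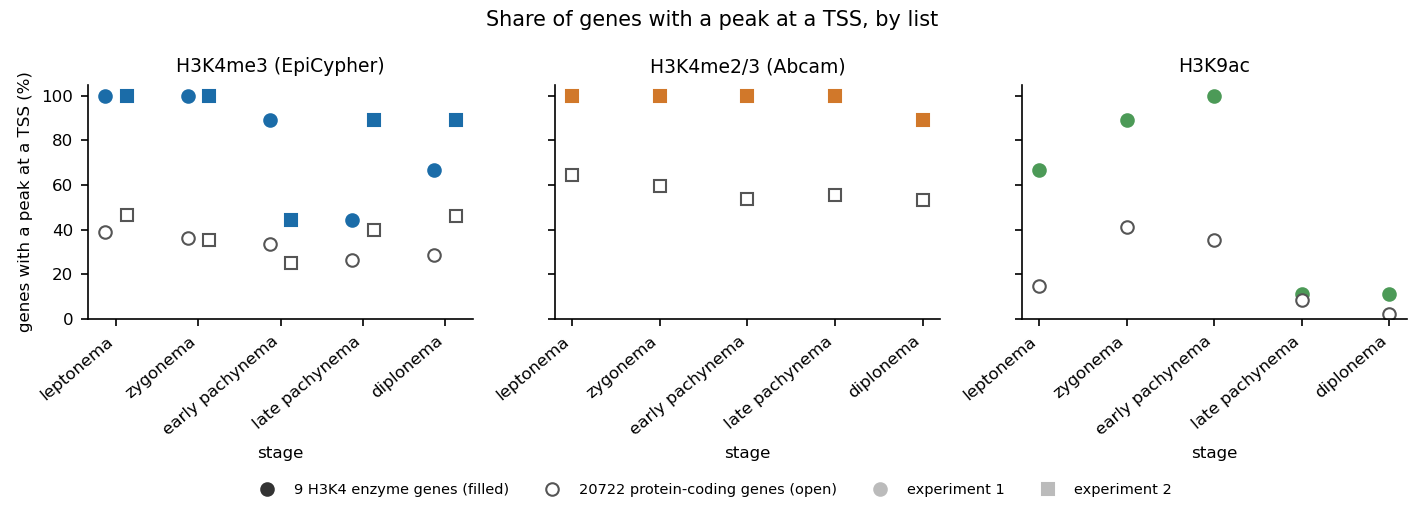
Share of the 9 H3K4 methyltransferase and demethylase genes (filled) and of 20722 autosomal protein-coding genes (open) with a peak within 500 bp of a TSS, in percent, by stage, with circles for experiment 1 and squares for experiment 2. The filled points stand at 100% in all 4 H3K4me3 lists of leptonema and zygonema and lie above the open point of the same list throughout.

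Across stages, 9 of 9 members had an H3K4me3 peak in all 4 leptonema and zygonema lists, a pattern shared by 31.3% of all genes, and 3 of 9 (Setd1a, Kdm5b and Kdm1a) in all 10 lists, against 18%. The 6 other members were missing from 1 or more of the 6 later lists, a pattern of 13.3% of all genes. As all 9 members were called early, the nearer base is the 6479 genes called in all 4 early lists. Of these, 3729 were in all 10 lists and 2750 were missing from a later one. Being called throughout was thus less frequent among the members (3 of 9) than in that base, a difference that was not tested. Kmt2a alone was called in all 4 early lists and in none of the 6 later ones, as were 107 genes in all (0.516%). H3K4me2/3 peaks at all 5 stages were found at 8 of 9 members (47.8% of all genes), H3K9ac peaks at leptonema, zygonema and early pachynema at 6 of 9 (14%), and H3K9ac at early pachynema with none at late pachynema and diplonema at 7 of 9 (26.6%).

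The H3K4me3 peaks of the members were mostly among the wider ones of their lists. The median width percentile of the called members within a list lay between 84.5 and 93.4 in 7 of the 10 lists, was 95.1 in diplonema experiment 2, and was lower in early pachynema experiment 1 (67.1) and diplonema experiment 1 (49.0). For all genes with a peak at a TSS the median percentile lay between 50.9 and 61.2. Widths differed by gene: over the called H3K4me3 lists the median of the widest peak was 2098.5 bp for Kmt2c and 1751 bp for Kdm5b, against 882 bp for Kmt2d and 741.5 bp for Kdm1a. For Kdm1a the widest peak lay inside the gene, away from the promoter, in leptonema experiment 1 and both zygonema lists.

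**Figure D2:**
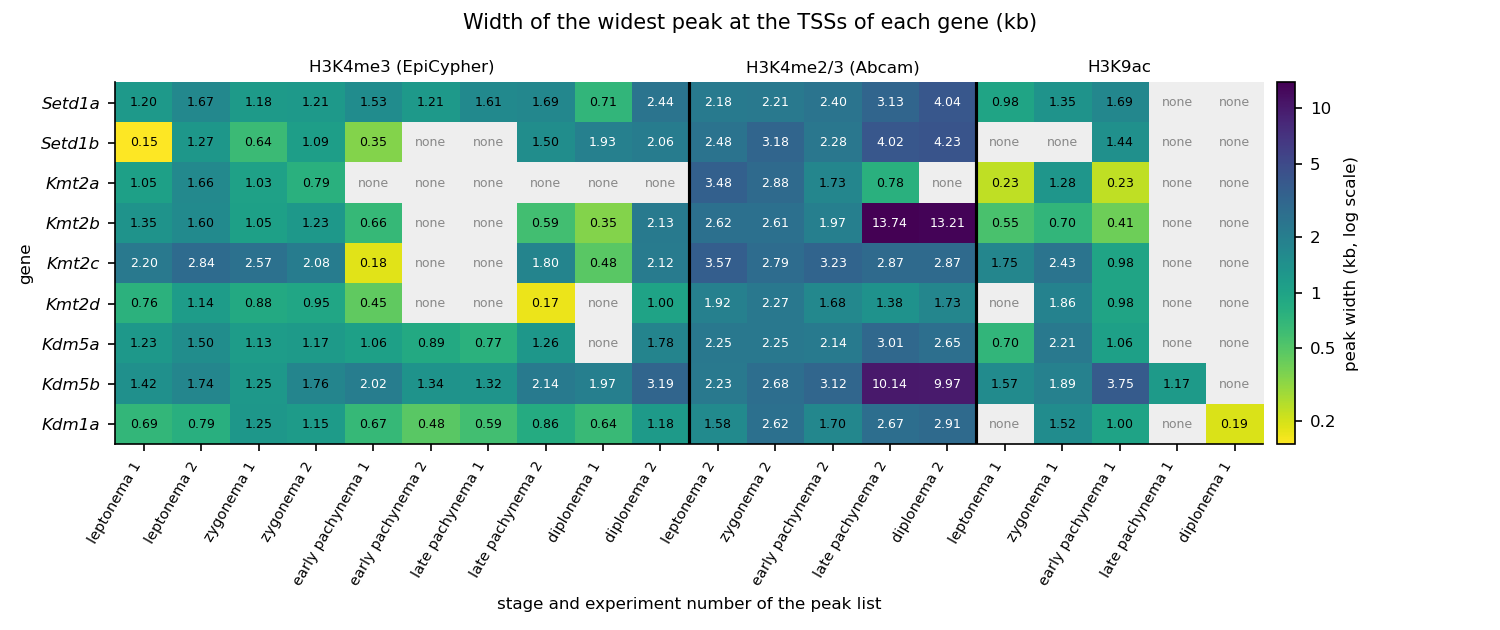
Width in kb (number in each cell, colour on a log scale) of the widest peak at the TSSs of each gene (rows) in each of the 20 lists (columns, by stage and experiment number), with grey cells where no peak was called. Kmt2a is grey in all 6 H3K4me3 lists after zygonema, and the widest cells are the late pachynema and diplonema H3K4me2/3 peaks at Kmt2b and Kdm5b.

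Setd1a (chromosome 7, plus strand, first TSS at 127776670), which codes for the catalytic subunit of a SETD1 complex, was marked throughout. Its H3K4me3 peak was 1198 and 1673 bp wide in leptonema (experiments 1 and 2), 1181 and 1214 bp in zygonema, 1526 and 1208 bp in early pachynema, 1609 and 1687 bp in late pachynema and 709 and 2444 bp in diplonema. The 4 early values lay inside the range of the 6 later ones, and the spread between the diplonema experiments was the largest. In diplonema experiment 1 the mark was called as separate pieces, with a second peak of 292 bp further downstream. The H3K4me2/3 peak was 2180, 2210, 2405, 3135 and 4044 bp wide from leptonema to diplonema, each wider than the one before, with 1 list per stage and no replicate. The median peak of these lists was 870, 836, 864, 1121 and 1294 bp wide, and Setd1a stayed between the 93.3rd and 97.0th width percentile. H3K9ac peaks of 977, 1354 and 1687 bp were called from leptonema to early pachynema and none later. The peaks lay over the start of the gene, reaching a median of 201 bp upstream and 1266 bp downstream of the first TSS for H3K4me3, and its 4 TSSs lie within that stretch.

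Setd1b (chromosome 5, plus strand, first TSS at 123142193), the paralog of Setd1a, was called less regularly. Its H3K4me3 widths were 151 and 1269 bp in leptonema, 636 and 1093 bp in zygonema, 350 bp and no peak in early pachynema, no peak and 1504 bp in late pachynema and 1934 and 2057 bp in diplonema. The diplonema peaks were the widest, the experiments within leptonema lay far apart, and a lone peak stood for each pachynema stage. Only 2 of the 8 peaks covered the first TSS, and the others began downstream of it, where a further TSS lies at 764 bp. The H3K4me2/3 peak, in contrast, covered the first TSS in all 5 lists, with widths of 2480, 3177, 2283, 4021 and 4231 bp from leptonema to diplonema, and H3K9ac was called in early pachynema only (1436 bp). The zygonema, late pachynema and diplonema H3K4me2/3 peaks also held the TSS of the noncoding gene AI480526. An internal TSS 21188 bp downstream had no peak in any list.

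Kmt2a (chromosome 9, minus strand, first TSS at 44881296), the homolog of Drosophila trithorax and a regulator of Hox genes, had the most restricted marking. The H3K4me3 peak was 1052 and 1655 bp wide in leptonema and 1029 and 786 bp in zygonema, and no peak was called in either experiment of early pachynema, late pachynema or diplonema. The lists without it included late pachynema experiment 2 (9124 peaks) and diplonema experiment 2 (12071 peaks), and those with it leptonema experiment 1 (9528) and zygonema experiment 2 (11314). List length counts peaks at sites of every kind and does not give the sensitivity at promoters. The part of depth in these calls was not tested. The pattern of 4 calls in 10 lists was the same with a window of 1000 bp, an overlap of 250 bp, all annotated transcripts, equal list sizes and a restriction to peaks wider than the median of the list. H3K4me2/3 gave 3478, 2878, 1727 and 779 bp from leptonema to late pachynema and no peak in diplonema. The late pachynema peak no longer reached the first TSS and lay 56 bp and more downstream of it, at the 36.6th width percentile of its list, whereas the leptonema peak was at the 99.1st. H3K9ac was called at 232, 1278 and 233 bp in leptonema, zygonema and early pachynema, so that early pachynema had an H3K9ac and an H3K4me2/3 peak where H3K4me3 was not called. With a required overlap of 250 bp, 1 of the 3 H3K9ac calls remained, and with equal list sizes none did. The peaks of 3 H3K4me3 lists also covered the TSS of the noncoding gene AC061963.1 on the other strand, whose mark cannot be told apart from that of Kmt2a.

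Kmt2b (chromosome 7, minus strand, first TSS at 30588726), the paralog of Kmt2a that is needed in oocytes, had H3K4me3 peaks of 1352 and 1596 bp in leptonema, 1048 and 1233 bp in zygonema, 662 bp in early pachynema experiment 1, 594 bp in late pachynema experiment 2 and 347 and 2132 bp in diplonema. No peak was called in early pachynema experiment 2 or late pachynema experiment 1. The early values were alike and the later ones ranged from none to the widest of all. H3K9ac was called at 546, 700 and 405 bp in the first 3 stages.

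The H3K4me2/3 course at Kmt2b was different. It was 2621, 2607 and 1971 bp wide from leptonema to early pachynema, and then 13744 bp in late pachynema and 13207 bp in diplonema, which were the 2nd widest of 19711 peaks and the 5th widest of 18191. These long peaks ran 11691 and 11936 bp upstream of the first TSS and covered Mir3569 and the TSSs of Zbtb32, a zinc finger gene upstream on the same strand. In leptonema, zygonema and early pachynema the same antibody gave separate peaks at Kmt2b and at Zbtb32, the latter 2241, 2147 and 2274 bp wide and beginning between 9112 and 9764 bp upstream of Kmt2b. H3K4me3 (EpiCypher) gave no long peak at these stages: within the H3K4me2/3 peak of diplonema, H3K4me3 peaks of 2132 and 1071 bp in experiment 2 covered 24.3% of its length, and those of experiment 1 covered 8.50%. H3K4me3 peaks at the Zbtb32 site were called in 8 of the 10 lists, in leptonema experiment 2 and zygonema experiment 2 and in all 6 later ones. The long peak thus spans the promoters of both genes and the sequence between them, and its width is not that of Kmt2b alone.

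Kmt2c (chromosome 5, minus strand, first TSS at 25498755), which with KMT2D methylates enhancers, had the widest H3K4me3 peaks of the 9 genes at the early stages. They were 2199 and 2843 bp in leptonema and 2573 and 2076 bp in zygonema, between the 97.9th and 99.8th percentile of their lists. In early pachynema experiment 1 the peak was 184 bp wide (5.94th percentile), and in late pachynema experiment 2 it was 1801 bp. Diplonema gave 480 and 2121 bp, and the remaining 2 lists had no peak. In late pachynema and diplonema the experiments thus differed, with no peak or a narrow one in experiment 1 and a peak close to the early widths in experiment 2. H3K4me2/3 was called at every stage, with 3570, 2795, 3235, 2867 and 2873 bp. H3K9ac was 1747, 2427 and 981 bp in the first 3 stages, the first 2 of them at the 98.9th percentile or higher. Peaks lay on both sides of the TSS and held the TSS of the noncoding gene 4831440E17Rik, on the other strand, in 6 of the 8 H3K4me3 lists.

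Kmt2d (chromosome 15, minus strand, first TSS at 98871204), the paralog of Kmt2c, had narrower H3K4me3 peaks, of 760 and 1143 bp in leptonema, 882 and 955 bp in zygonema, 453 bp in early pachynema experiment 1, 170 bp in late pachynema experiment 2 and 1003 bp in diplonema experiment 2, and none in the 3 other later lists. Of the 7 peaks 1 covered the first TSS, and the other 6 lay wholly upstream of it, with a median reach of 988 bp upstream. The H3K4me2/3 peak covered the TSS in all 5 lists, with widths of 1916, 2265, 1684, 1375 and 1728 bp, and H3K9ac was called in zygonema (1865 bp) and early pachynema (985 bp). Internal TSSs of Kmt2c and Kmt2d, from 14895 to 198680 bp downstream, had no peak.

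**Figure D3:**
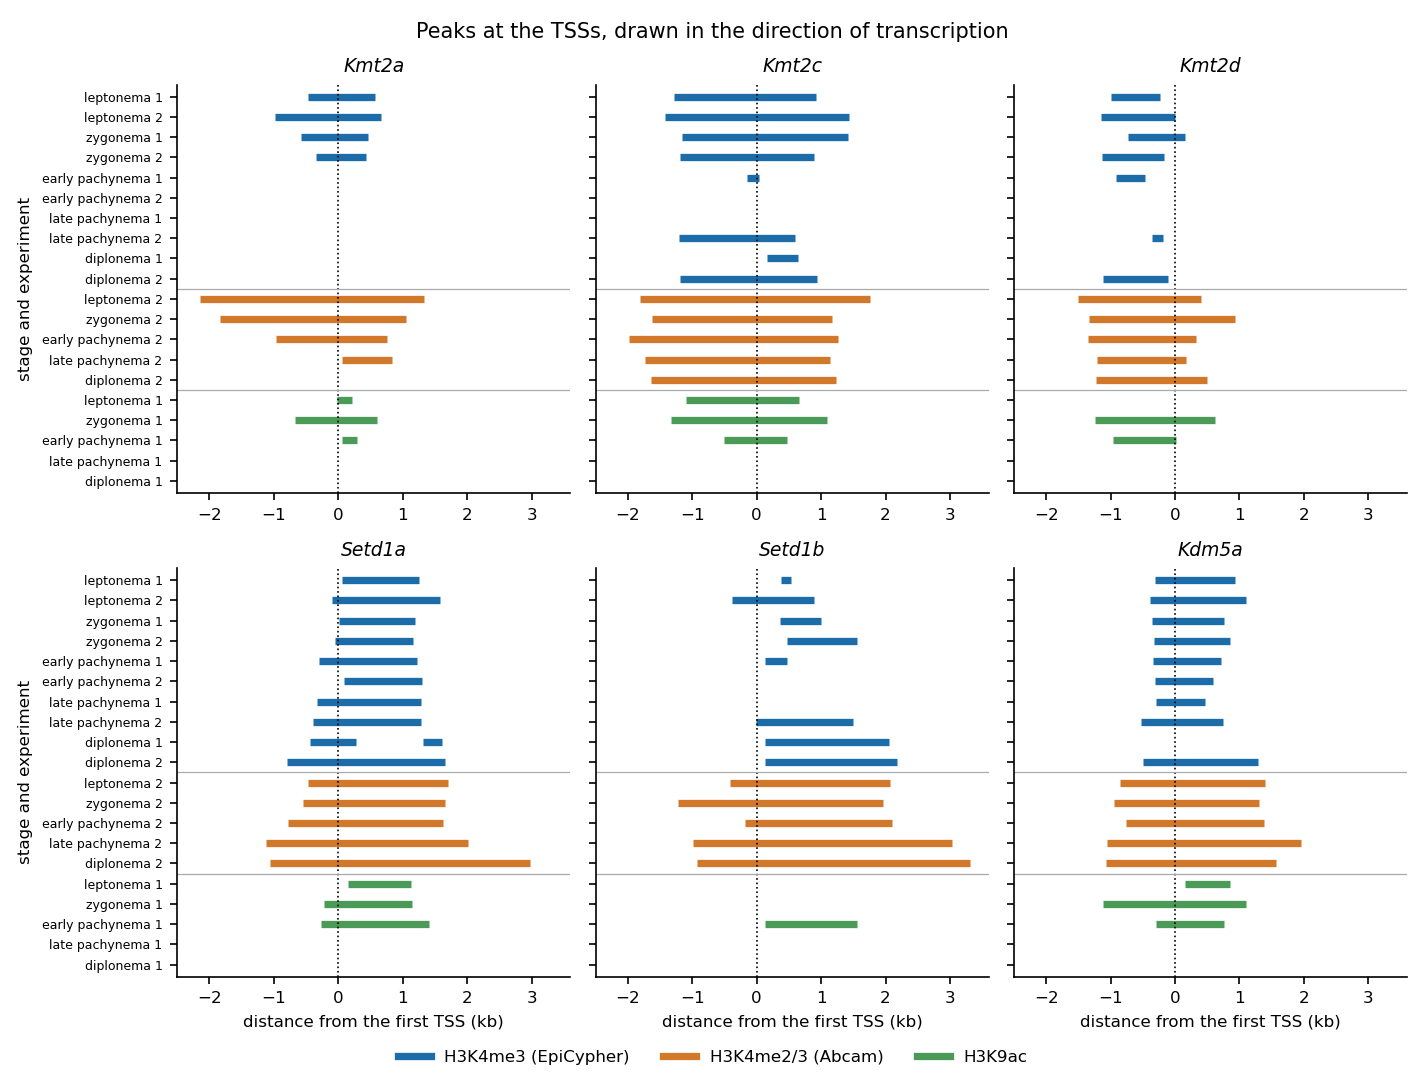
Extent of each peak (bars, coloured by antibody) relative to the first protein-coding TSS (dotted line, distance in kb, transcription to the right) for Kmt2a, Kmt2c, Kmt2d, Setd1a, Setd1b and Kdm5a in the 20 lists, by stage and experiment. At Kmt2a the H3K4me2/3 bars shorten from 3478 bp in leptonema to 779 bp in late pachynema, H3K4me3 peaks of Kmt2d lie upstream of the TSS, and those of Setd1a run downstream.

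Kdm5a (chromosome 6, plus strand, first TSS at 120364124), a demethylase of H3K4me3, was called in 9 of 10 H3K4me3 lists. Widths were 1230 and 1499 bp in leptonema, 1126 and 1167 bp in zygonema, 1064 and 891 bp in early pachynema, 767 and 1262 bp in late pachynema, and none and 1780 bp in diplonema. The 4 early values lay inside the range of the later ones. H3K4me2/3 was 2252, 2252, 2139, 3011 and 2649 bp and H3K9ac 704, 2214 and 1061 bp in the first 3 stages. Every one of these peaks also held a TSS of Ccdc77, a protein-coding gene on the other strand of which an annotated transcript begins here, so the marks cannot be assigned to either gene alone.

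Kdm5b (chromosome 1, plus strand, first TSS at 134560171), the other KDM5 demethylase, was called in all 10 H3K4me3 lists. Its peak was 1417 and 1740 bp wide in leptonema, 1249 and 1762 bp in zygonema, 2019 and 1344 bp in early pachynema, 1320 and 2139 bp in late pachynema and 1966 and 3185 bp in diplonema. The early and later values overlapped, and 4 of the 6 later values exceeded every early one. The peak lay over the beginning of the gene and reached a median of 1635.5 bp downstream and hardly upstream. H3K9ac was 1569, 1893, 3746 and 1173 bp from leptonema to late pachynema, which made Kdm5b the only member with an H3K9ac peak in late pachynema. In diplonema an H3K9ac peak of 1050 bp began 582 bp downstream of the first TSS, just outside the window.

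H3K4me2/3 at Kdm5b was 2231, 2681 and 3118 bp wide in the first 3 stages and 10136 and 9967 bp in late pachynema and diplonema, the 4th widest of 19711 peaks and the 14th widest of 18191. As at Kmt2b, the earlier stages had a second peak of the same antibody nearby, here 1534, 2520 and 2399 bp wide and starting between 2426 and 2660 bp upstream of the TSS with no other annotated TSS in the long peak. The later single peak ran over both places, from 5118 bp upstream to 5017 bp downstream in late pachynema. H3K4me3 was called at the upstream place in 4 of the 10 lists, at 484 and 1091 bp in leptonema, 173 bp in zygonema experiment 2 and 155 bp in late pachynema experiment 2. In diplonema H3K4me3 covered 19.7% and 32.0% of the long peak in experiments 1 and 2. There was 1 H3K4me2/3 list per stage, so these widths have no replicate.

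**Figure D4:**
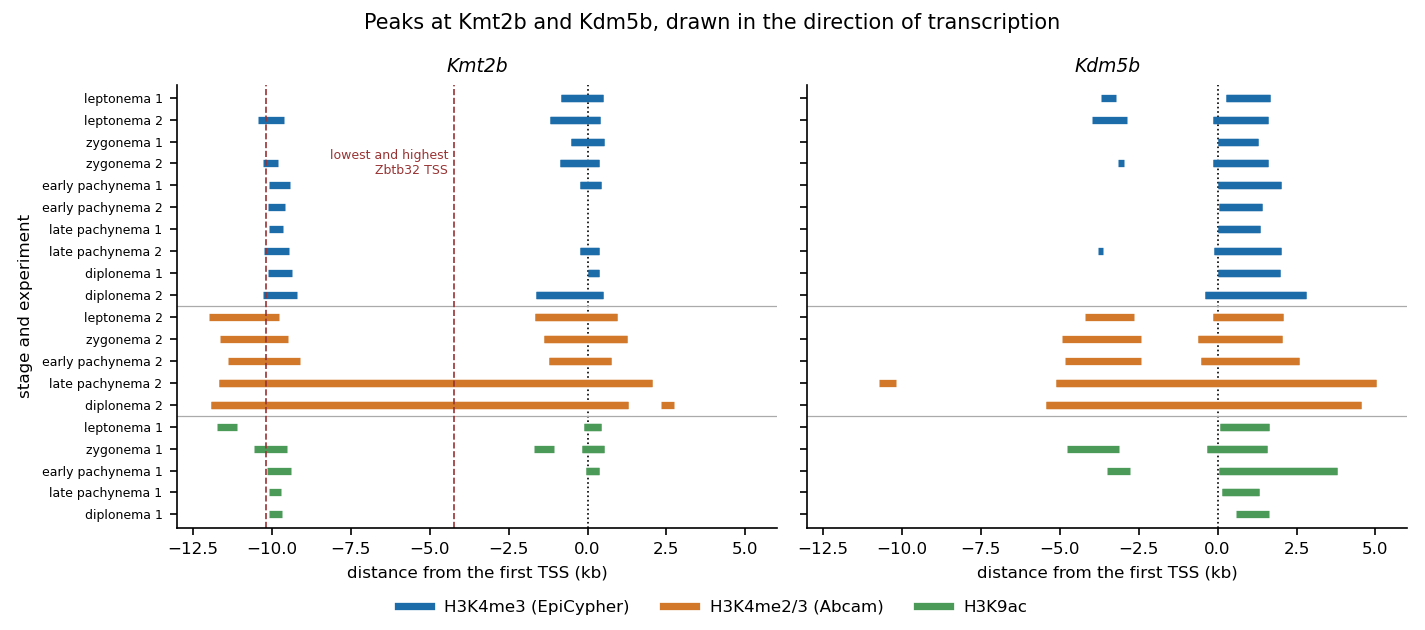
Peaks of all 20 lists (bars, coloured by antibody) between 13 kb upstream and 6 kb downstream of the first TSS (dotted line) of Kmt2b and Kdm5b, in kb, by stage and experiment, with dashed lines at the lowest and highest Zbtb32 TSS. Separate H3K4me2/3 peaks in leptonema, zygonema and early pachynema stand where single peaks of 13744 and 13207 bp (Kmt2b) and 10136 and 9967 bp (Kdm5b) lie in late pachynema and diplonema.

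Kdm1a (chromosome 4, minus strand, first TSS at 136602723), which codes for the flavin-dependent demethylase LSD1, had peaks at 2 separate places. At its promoter H3K4me3 was narrow and present in all 10 lists, with 624 and 790 bp in leptonema, 775 and 871 bp in zygonema, 669 and 476 bp in early pachynema, 590 and 861 bp in late pachynema and 640 and 1181 bp in diplonema. The early values lay inside the range of the later ones. H3K4me2/3 there was 1583, 2622, 1697, 2674 and 2914 bp wide, and H3K9ac was called in zygonema (1524 bp), early pachynema (1004 bp) and diplonema (193 bp).

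The second place lay inside the gene, upstream of an annotated alternative TSS that is 25565 bp downstream of the first. Here H3K4me3 peaks of 693 and 254 bp were called in leptonema and of 1255 and 1149 bp in zygonema, and no peak was called in any of the 6 later lists. The zygonema peaks were wider than the leptonema ones and also wider than the promoter peaks of the same lists. The other antibodies gave the same stages: H3K4me2/3 peaks of 909 bp in leptonema and 1501 bp in zygonema, and an H3K9ac peak of 1311 bp in zygonema alone. All 7 peaks shared the 254 bases of the inner site printed above, which overlap no annotated exon of the gene and begin 455 bp upstream of the alternative TSS. Only the zygonema H3K4me2/3 peak reached that TSS itself, and the others ended at least 211 bp before it. No other internal TSS of the 9 genes that stood apart from its promoter had a peak in any list.

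**Figure D5:**
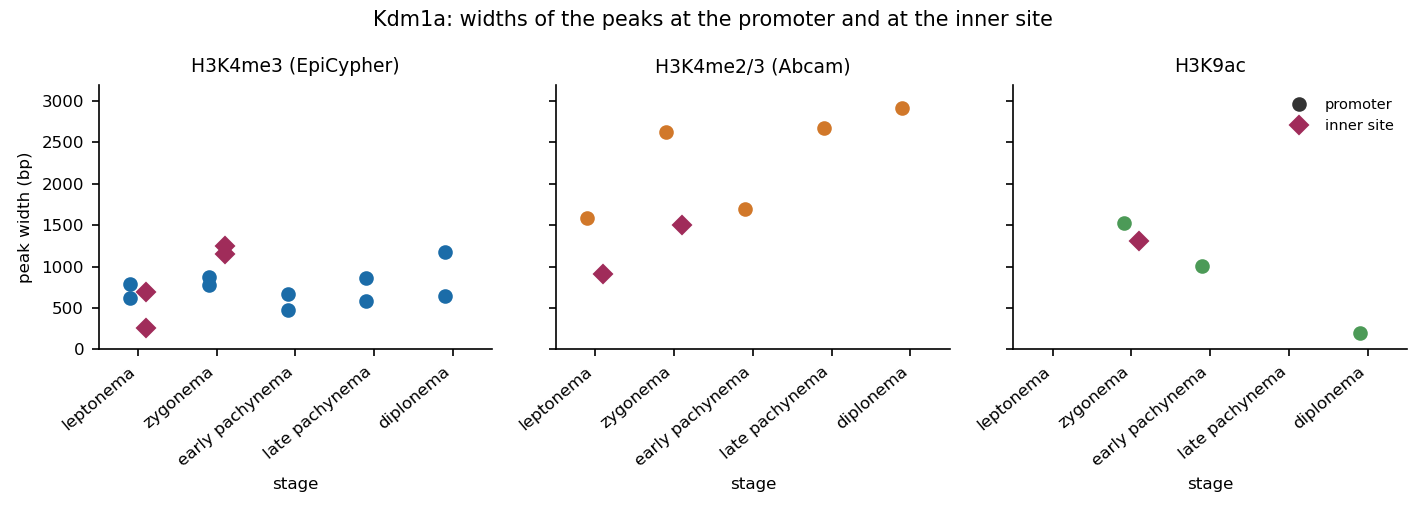
Width in bp of the Kdm1a peaks at the promoter (circles) and at the inner site (diamonds) by stage, for each antibody, with 1 point per list. Promoter peaks are present in all 10 H3K4me3 lists, while diamonds appear in leptonema and zygonema only.

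The question whether H3K4me3 peaks of these genes were wider before or after the start of pachynema was tested with limma on the log2 width relative to the median gene of the same library, as the mean of leptonema and zygonema minus the mean of the 3 later stages. A gene needed a peak in all 10 libraries, which left 3729 genes and 3 of the 9 members, and 323 genes passed (8.66%), 161 wider early and 162 wider later. The 3 members did not pass the test. Kdm5b was at 0.91 early and 1.34 later, a difference of -0.43 (SE 0.22, limma adjusted p = 0.225). Setd1a was at 0.68 and 0.93, a difference of -0.25 (SE 0.26, limma adjusted p = 0.576), and Kdm1a at 0.21 and -0.10, a difference of 0.31 (SE 0.20, limma adjusted p = 0.331). A two-sided exact permutation test over the 210 ways to assign the 10 libraries to groups of 4 and 6, not adjusted for the number of genes, gave p = 0.0238 for Kdm5b, 0.233 for Kdm1a and 0.5 for Setd1a. It exchanged single libraries without keeping those of a stage together, so these p-values do not measure the spread between stages. Across all 5 stages the limma F test called 20 of the 3729 genes (0.536%), none of them a member, with adjusted p of 0.208 for Kdm1a, 0.531 for Kdm5b and 0.372 for Setd1a.

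The Kdm1a value depended on which of its peaks was measured. The widest peak, used in the main test, was the inner site in leptonema experiment 1 and both zygonema lists, and the promoter peak elsewhere. With the widths of both places summed in leptonema and zygonema, Kdm1a was wider early by 1.02 (SE 0.22, limma adjusted p = 0.0184, in a fit that called 8.88% of genes). With the first TSS alone, a choice made after the data were seen, it was 0.01 (SE 0.20, limma adjusted p = 0.986). When genes with a peak in at least 1 library of every stage were fitted and missing peaks left out, 6220 genes and 8 members could be tested and 551 genes passed (8.86%). In this fit Kmt2c was wider early by 1.78 (SE 0.37, adjusted p = 0.0260) and Kmt2d by 1.19 (SE 0.26, adjusted p = 0.0361), both resting on 1 library each for early and late pachynema and, for Kmt2d, also for diplonema. Kmt2b was at 0.88 (SE 0.45, adjusted p = 0.233), Setd1b at -0.76 (SE 0.56, adjusted p = 0.396), Kdm5b at -0.52 (SE 0.21, adjusted p = 0.134), Setd1a at -0.34 (SE 0.27, adjusted p = 0.436), Kdm1a at 0.22 (SE 0.19, adjusted p = 0.470) and Kdm5a at -0.06 (SE 0.21, adjusted p = 0.873). The calls for Kmt2c and Kmt2d were lost when any of the 4 leptonema and zygonema libraries was left out (adjusted p from 0.0524 to 0.0881 for Kmt2c and from 0.0633 to 0.119 for Kmt2d), and without centring the libraries (1.79, adjusted p = 0.179, for Kmt2c and 1.12, adjusted p = 0.211, for Kmt2d). The difference itself stayed between 1.51 and 2.12 for Kmt2c and between 1.10 and 1.30 for Kmt2d in all fits that could be made without a library. Without diplonema experiment 2, Kmt2b passed as well (1.30, SE 0.28, adjusted p = 0.0287).

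At the same stage and experiment number, the H3K4me2/3 peak of a member was wider than its H3K4me3 peak in 38 of 38 cases where both were called. Among all genes with both peaks 96.0% to 100% were wider, depending on stage. For early pachynema the study lists a different amount of starting chromatin for the H3K4me2/3 library than for the H3K4me3 library of the same number. H3K9ac peaks were wider than H3K4me3 in 13 of 24 cases. At leptonema 1 of 6 members had the wider H3K9ac peak, Kdm5b (1569 against 1417 bp), in zygonema and early pachynema 6 of 8 each, and in late pachynema and diplonema none of the single cases. All genes with both peaks gave 12.6%, 82.2% and 75.0% in the first 3 stages.

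The other genes of the pathway were mostly marked at all stages. Of 24 genes fixed as a list, 17 had an H3K4me3 peak in all 10 lists, against 18% of all genes, and all 24 in at least 1, where 9507 of the 20722 genes had none. The 4 shared subunits (Wdr5, Rbbp5, Ash2l, Dpy30) and the 3 genes of the SETD1 complexes (Cxxc1, Wdr82, Bod1l) were called in all 10 lists. Of the KMT2A and KMT2B partners Psip1 was, and Men1, the gene of menin, was called in 6 lists with peaks of at most 775 bp. Paxip1 and Ncoa6 of the KMT2C and KMT2D complexes were called in all 10 and Pagr1a in 6. Of 7 KDM1A partners 5 were, with Phf21a in 9 lists and the CoREST gene Rcor2 in 5.

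Among the 5 remaining genes of the fixed list, Prdm9 and Kmt2e were called in all 10 lists, whereas 3 had no H3K4me3 peak after zygonema. Kdm1b, the paralog of Kdm1a, had peaks of 928 and 474 bp in leptonema and 1170 and 711 bp in zygonema and none later, the same calls as Kmt2a. Setd7, a monomethyltransferase, had 955 and 1552 bp in leptonema and 1273 bp in zygonema experiment 1. Smyd3 had 304, 1324 and 203 bp in the same lists.

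Of the 17 partners that could be tested for width, 2 passed, both wider early, beside 8.66% of all genes tested in either direction. Prdm9 had widths of 1049, 1750, 916 and 540 bp in the leptonema and zygonema lists and of 692, 180, 196, 496, 167 and 489 bp in the later ones. Only the early pachynema experiment 1 value of Prdm9 reached into the early range, and the difference was 1.52 (SE 0.30, limma adjusted p = 0.0150). Ncoa6, a coactivator of the KMT2C and KMT2D complexes, differed by 0.83 (SE 0.23, limma adjusted p = 0.0418). Without centring neither passed, at differences of 1.63 for Prdm9 (adjusted p = 0.244) and 0.94 for Ncoa6 (adjusted p = 0.286). Prdm9 was also lost without leptonema experiment 2 (1.43, adjusted p = 0.0512). Ncoa6 was lost without each library other than late pachynema experiment 2 or diplonema experiment 2 (0.62 to 0.86, adjusted p from 0.0705 to 0.133) and in the fit of genes called at every stage (0.74, adjusted p = 0.0789).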

How the data were processed

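The measurement was ChIP-Seq of sorted mouse spermatocyte nuclei in 20 of the 51 samples of the series. The other 31, such as input DNA, were left aside. Reads were mapped by the authors with BWA mem (0.7.12, mm10) and peaks called in each library with MACS2 (2.1.2) in broad mode at a q-value of 0.1 against input from the same stage; the versions are from the submitters' processing notes. For H3K9ac the control is not given in the sources used here. The deposited lists give positions alone (238528 peaks on chromosomes 1 to 19, from which widths follow), with no score. A library of another depth or purity can give other numbers and widths of peaks, and no depth can be read from the lists. At most 1 peak had identical edges in any pair of lists of the same antibody.

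From these positions, calls (overlap of at least 1 bp with 500 bp on either side of a TSS, GENCODE M21) and widths were computed with Python 3.11.15, numpy 2.4.6, pandas 2.3.3 and pysam 0.24.0. Widths were tested with limma 3.58.1 in R 4.3.3 (Benjamini-Hochberg adjustment over all genes tested, threshold 0.05). The H3K4me2/3 and H3K9ac lists had 1 library per stage and were not tested. The code was tested on simulated data for the contrast of leptonema and zygonema against later stages. Of 3729 genes, 200 were given a log2 change of 2 and 93.5% of these were recovered, with 5.56% of calls false. That change is larger than the difference of any member in the main test, so the recovery does not apply to them. As a check of the overlap code alone, 500 of 500 peaks planted with centres inside the TSS windows were found at their genes. The named genes are the 9 members, 24 other genes of the pathway counted by group (with values for those that lack a peak in an H3K4me3 list or pass the width test), genes whose TSS lies under a peak of a member, and cell type markers. The members and lists were chosen with earlier results of these data known. Experiment numbers were not used as pairs in the main fit, and the deviations of libraries with the same number correlated weakly between stages (-0.148 to 0.111). The labels do not say whether libraries of the same number shared animals or a sort. Alternatives were another window, overlap, transcript set, list size, width measure, centring, a replicate block and leaving out each library. The width at the first TSS, the fits of genes called at every stage without a library or without centring, and the calls without leptonema and diplonema experiment 2, or without both leptonema lists and zygonema experiment 1, were added after seeing the data. Sequences are from RefSeq (GRCm38.p6).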

Additional observations from a re-analysis of the deposited data

How the results depend on the processing

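The shares of gene-list pairs with a peak at the 9 genes stayed within 1.5 times the value reported (82.2% for H3K4me3, 97.8% for H3K4me2/3, 55.6% for H3K9ac) under every alternative tried, except that with equal list sizes the H3K9ac share was 20.0%. The shares of 82.2% and 97.8% could not pass this limit upward, leaving out 1 list could hardly move them, and pooled shares do not compare the stages. With an overlap of 250 bp, H3K4me3 calls from leptonema to diplonema were 17, 18, 10, 11 and 14 of 18 pairs. With only peaks wider than the list median they were 17, 17, 9, 11 and 11. That setting keeps 516 peaks of each H3K9ac list. The count of genes wider or narrower before pachynema, 323, was 0 without centring the libraries, where all genes shifted by a median of 0.11 and 526 had an unadjusted p under 0.05, and 551 with genes called at every stage. Without 1 library it ranged from 44 to 373, with 44 and 90 without leptonema replicate 1 and 2, 127 and 146 without zygonema replicate 1 and 2, 103 without early pachynema replicate 2 and 175 without diplonema replicate 1. The F test count over 5 stages, 20, was 0 without centring (635 unadjusted), 31 with summed widths, 35 with the window of 1000 bp and 13 with genes called at every stage, and ranged from 3 to 75 without 1 library. With the replicate block 336 and 24 genes were called, and it changed no call of a member in the contrast of early against later stages. As a width rank percentile the Setd1a difference changed sign, to 1.03 points wider early (limma adjusted p = 0.955). The causes of these shifts were not tested. Depth is unknown, so a missing peak does not show that a mark was absent.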

Other observations

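Outside the TSS windows of any annotated gene, 32 peaks lay inside the bodies of the 9 genes, 14 of them in Kmt2c, 8 in Kmt2d, 5 in Setd1b, 4 in Kdm5b and 1 in Kmt2b. Zygonema held 18 of the 32, and its lists held 15699, 11314, 29114 and 16003 of the 238528 peaks of all lists. A place was counted once for each list that called it, so the 32 peaks are not separate sites. In Kmt2c, peaks centred 26331, 36824, 67902 and 157259 bp from the first TSS, none over an annotated exon, were called with H3K4me3 in zygonema experiment 1 (in that order 639, 221, 974 and 813 bp) and at the same places with H3K4me2/3 in zygonema (1046, 1151, 775 and 1374 bp), and all but the second with H3K9ac in zygonema (575, 824 and 782 bp). None of the 4 was called with H3K4me3 in zygonema experiment 2. The farthest of them had an H3K4me2/3 peak of 286 bp in leptonema, and none of the 4 had a peak of any antibody after zygonema.

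Kmt2d had the reverse order at a site between 3981 and 4259 bp downstream of its first TSS. H3K4me3 peaks of 341 and 404 bp were called there in diplonema (experiments 1 and 2) and in no earlier list, and H3K4me2/3 peaks of 260, 1751 and 1635 bp from early pachynema to diplonema. Setd1b had H3K4me2/3 peaks of 3050 and 2431 bp centred 7128 and 7080 bp downstream in late pachynema and diplonema only. These peaks were picked after their positions were seen, have 1 list per stage except for H3K4me3, and were not tested.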
